A study of Homo sapiens with 3 samples.

Results

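The MHC class I genes and the genes that supply them with peptide were examined in A549, a human cell line derived from a lung adenocarcinoma. The members were HLA-B, HLA-C, HLA-E, HLA-F, B2M, TAP1, TAP2, TAPBP and PSMB9, chosen by name, although earlier results of these data were known. They are 9 of the 22435 genes that a probe of the array could be named for, and they were measured by 15 of 58201 probes in 24 spots. To compare expression after treatment, cells were kept for 48 h with 0.1% DMSO as the vehicle control, with 60 μg/mL cordycepin (3′-deoxyadenosine) or with 100 μg/mL cordyceps, and RNA of each condition was hybridized to 1 Agilent array in a single Cy3 channel. According to the labels, all 3 cultures were grown in DMEM with serum, penicillin-streptomycin, nicotinamide, troglitazone and zinc sulfate. How the cordyceps was prepared is not given in the sources used here. There was 1 array per condition (n = 1), so each difference is a difference between 2 arrays, without replicate error or p-value.

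MHC class I molecules show peptides from inside the cell to cytotoxic T cells. A heavy chain, encoded by an HLA gene, pairs in the endoplasmic reticulum with the light chain β2-microglobulin, the product of B2M. Proteasomes cut proteins into peptides, the TAP1 and TAP2 proteins carry the peptides into the endoplasmic reticulum, and tapasin, encoded by TAPBP, holds the heavy chain near the transporter while peptide is loaded. Interferons and NF-κB are known inducers of most of these genes, and many lung tumors express them at low levels.

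The values were the processed signals of the scanner files, given here unscaled as the level on each array. Ratios were taken between arrays after log2 transformation and subtraction of the 75th percentile of each array, which corresponded to signals of 260.1, 224.3 and 260.2 on the control, cordycepin and cordyceps arrays. Detection of a probe required the scanner software to mark 50% or more of its spots as well above background, as was the case for 49.0%, 47.5% and 42.1% of the probes. No spot was saturated, and 63 to 106 outlier spots per array were left out. Different probes of 1 gene gave log2 ratios whose SD for a single probe was 0.25 with cordycepin and 0.20 with cordyceps, over 3356 genes, and for genes with both probes above a signal of 1000 the SDs were 0.15 and 0.13. These SDs measure probe error, not the spread between cultures. Passing the SD was common. Over all probes tested, 29.4% lay above it and 30.6% below its negative with cordycepin, and 22.2% and 42.7% with cordyceps. In a corner of the arrays (rows above 240 of 384 and columns above 82 of 164), 11.2% of the spots of the cordyceps array had an outlying local background, against 0% for either other array. The probe of HLA-C, a probe of HLA-F and a probe of TAPBP lie in that corner, as does 1 of 10 spots of B2M. The epithelial keratin genes KRT8, KRT18 and KRT7 and the adhesion gene CDH1 were detected on all arrays, as were the other 4 of the 8 epithelial markers. EPCAM was 2.85-fold lower with cordycepin and ALDH3A1, in the corner, 2.57-fold lower with cordyceps. Of the leukocyte markers, CD3E was detected on none of the arrays, while PTPRC, CD14, LST1 and TYROBP were detected on all, and LST1, a gene of the MHC region with signals of 55.8, 183 and 139, was 3.81-fold higher with cordycepin and 2.48-fold with cordyceps, the latter falling to 0.77 on the log2 scale with normexp. The part of these markers in the results was not tested. In RNA of a whole culture, fewer cells that express a gene and less of its RNA per cell cannot be told apart. Of the 5 fibroblast markers, COL1A1 alone was detected.

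All 9 genes were detected on every array by at least 1 probe, and 14 of the 15 probes were. The exception was a TAP2 probe with signals of 4.89, 5.54 and 8.95, which gave no ratio. With cordycepin, none of the 14 measured probes was 2-fold higher or lower than in control cells. Among all 29581 probes tested, 7.21% were at least 2-fold higher with cordycepin and 3.69% at least 2-fold lower. With cordyceps, 1 of the 14, an HLA-B probe, was at least 2-fold higher and none was at least 2-fold lower, compared with 5.67% and 3.49% of 26849 probes. Outside the corner these shares were 7.39% higher and 3.68% lower with cordycepin, and 3.06% and 3.59% with cordyceps. With median scaling the shares over all probes became 4.43% higher and 7.61% lower with cordycepin, and 8.09% and 1.48% with cordyceps. A single probe of 14 is close to that background share, so the count says little about these genes as a group.

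The median log2 ratio of the 9 genes, each taken by its brightest probe, was 0.12 with cordycepin and 0.04 with cordyceps. It was -0.03 and -0.14 over all probes tested, and -0.05 and -0.12 over the brightest probe of each named gene. The signs of the members' medians depend on how the arrays are scaled. With median scaling the members' medians were -0.15 and 0.31, and those of all probes -0.29 and 0.13. The members stayed above all probes by 0.08 to 0.25 in both comparisons, over 6 ways of scaling or background correction. Most of these ways shift a whole array, so they could change this distance little. With quantile normalization it was 0.25 in both comparisons, and with normexp background correction 0.08 and 0.09. The probe sequences were not used here, so whether the HLA probes tell near-identical paralogs apart was not tested. The genes did not move as a block. Their log2 ratios ran from -0.35 for TAPBP to 0.56 for PSMB9 with cordycepin, and from -0.42 for TAPBP to 0.68 for HLA-B with cordyceps.

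**Figure D1:**
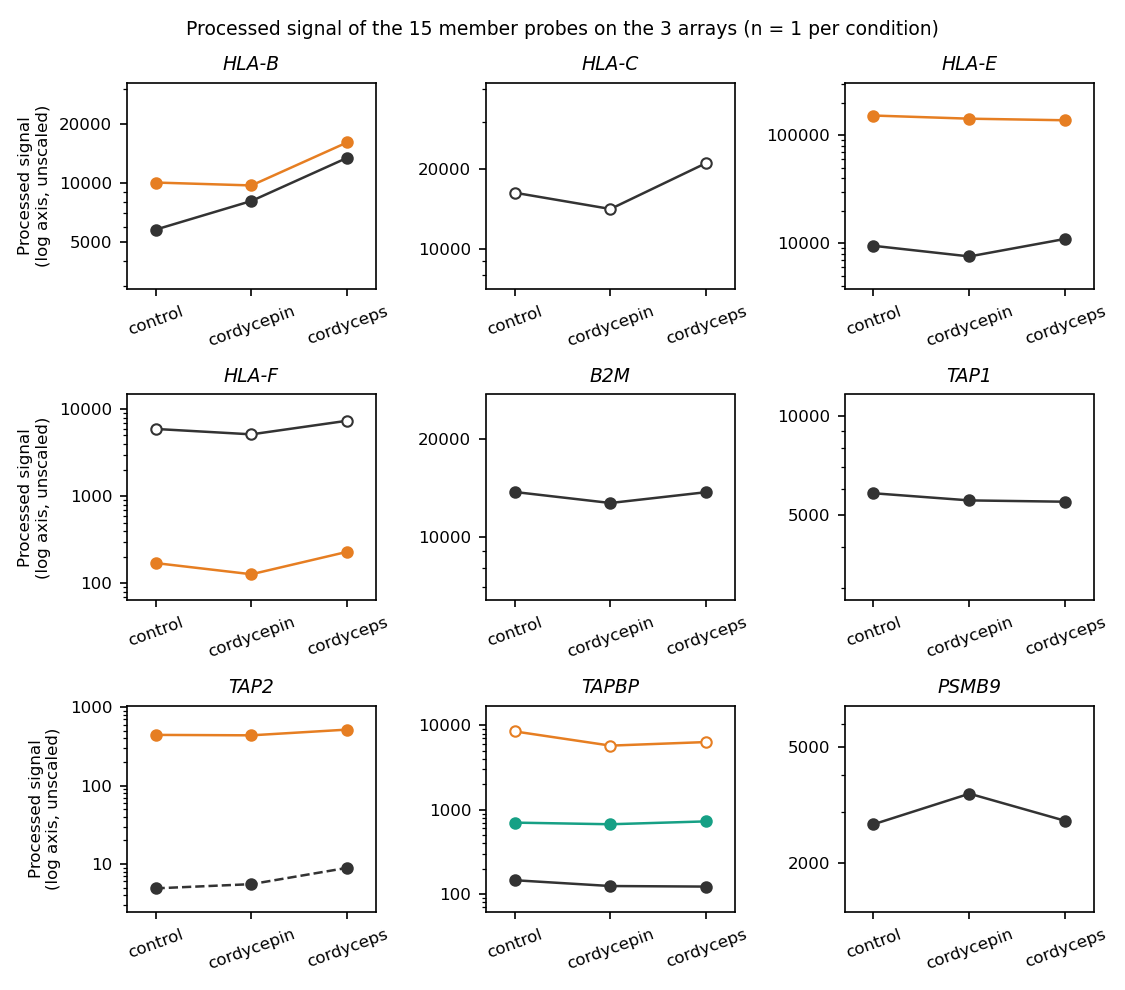
Processed signal (log axis, not scaled between arrays) of each of the 15 member probes on the control, cordycepin and cordyceps arrays, with a line per probe and a panel per gene; each point is 1 array. Open points are probes in the array corner, and the dashed line is the TAP2 probe that was not detected; both HLA-B probes were highest on the cordyceps array (13425 and 16077) and PSMB9 on the cordycepin array (3461).

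HLA-B and HLA-C encode classical heavy chains, the ones that present most peptides to T cells, and HLA-B gave the highest ratio among the members with cordyceps. HLA-B (chr6:31353875-31357179 in GRCh38.p14) was measured by 2 probes outside the corner. Probe 1 (A_33_P3379947) had signals of 5792 in control cells, 8098 with cordycepin and 13425 with cordyceps. Probe 2 (A_33_P3424800) had 10045, 9711 and 16077. On both probes the cordyceps array was the highest of the 3. The probes did not match in how the cordycepin array stood to control, which was above it for probe 1 and slightly below it in unscaled signal for probe 2. With cordyceps the log2 ratios were 1.21 (2.32-fold) for probe 1 and 0.68 (1.60-fold) for probe 2. With cordycepin they were 0.70 (1.62-fold) and 0.17 (1.12-fold). The probes thus differed by 0.53 in each comparison with the control array, more than the SD of 0.15 or 0.13 of bright probes. Between the treated arrays they gave the same difference, 0.51 higher with cordyceps by each.

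The HLA-B ratio with cordyceps is set beside other probes here as a description only. HLA-B was singled out by these same values, so small shares follow from that choice. Of 1632 probes outside the corner with a signal within a factor of 2 of probe 1, 0.674% had a ratio at least as high, and of 1343 probes like probe 2 it was 3.35%. Over 6 ways of scaling or background correction, the ratio of probe 2 with cordyceps lay between 0.68 and 0.95, always above 0, while its ratio with cordycepin lay between -0.10 and 0.27.

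HLA-C (chr6:31268749-31272092) was measured by 1 probe, in the corner, with signals of 16262 in control cells, 14117 with cordycepin and 21038 with cordyceps. The cordyceps array was the highest here as well. Its log2 ratio was 0.37 (1.29-fold) with cordyceps and 0.01 with cordycepin. At this brightness the corner differed little from the rest of the cordyceps array: probes with signals above 10000 had a median log2 ratio of -0.15 in the corner (SD 0.36, 311 probes) and of -0.14 elsewhere (SD 0.37, 1303 probes). Among probes with signals under 100, in contrast, 14.2% in the corner and 3.75% elsewhere were at least 2-fold higher.

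HLA-E and HLA-F are non-classical heavy chains; HLA-E binds the inhibitory receptor CD94-NKG2A of natural killer cells. HLA-E (chr6:30489509-30494194) gave no common direction. Its probe 1 had signals of 9510, 7584 and 11025 on the control, cordycepin and cordyceps arrays, and its probe 2 had 152635, 142741 and 137992. The log2 ratios with cordyceps were 0.21 and -0.15, and with cordycepin -0.11 and 0.12, so the probes were opposite in sign in both comparisons under this scaling. Unscaled, both were lower with cordycepin, with log2 ratios of -0.33 for probe 1 and -0.10 for probe 2. HLA-F (chr6:29723434-29738532) was highest with cordyceps on both of its probes. Probe 1, in the corner, had signals of 5945, 5153 and 7390, and probe 2, outside it, had 171, 127 and 231. The log2 ratios with cordyceps were 0.31 and 0.43 (1.24-fold and 1.35-fold), above the SD of a single probe. With cordycepin they were 0.0078 and -0.21, within it.

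The heavy chain genes HLA-B, HLA-C and HLA-F share similar upstream sequences, which are shown because these are the members with the higher cordyceps ratios. The 250 bases before the annotated gene start were taken from RefSeq (GRCh38.p14), which had an entry for 8 of the 9 members. HLA-E had none, so its window could not be compared. Whether the sequences relate to the ratios was not tested. The windows lie at chr6:31357180-31357429 (minus strand) for HLA-B, chr6:31272093-31272342 (minus strand) for HLA-C and chr6:29723184-29723433 (plus strand) for HLA-F. Capitals mark matches, on either strand, to the NF-kB consensus, the core of the interferon-stimulated response element (ISRE), the X2 box or CRE core TGACG and the Y box core CCAAT.
HLA-B: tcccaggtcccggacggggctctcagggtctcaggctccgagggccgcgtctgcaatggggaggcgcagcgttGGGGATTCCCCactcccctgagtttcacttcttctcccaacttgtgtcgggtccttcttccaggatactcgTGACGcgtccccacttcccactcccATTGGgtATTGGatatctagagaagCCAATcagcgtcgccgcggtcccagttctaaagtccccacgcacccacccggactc
HLA-C: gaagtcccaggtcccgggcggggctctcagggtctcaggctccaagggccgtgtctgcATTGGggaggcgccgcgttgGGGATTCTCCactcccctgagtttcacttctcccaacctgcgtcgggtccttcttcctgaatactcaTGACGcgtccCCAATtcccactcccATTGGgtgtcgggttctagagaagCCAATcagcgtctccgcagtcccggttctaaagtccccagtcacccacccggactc
HLA-F: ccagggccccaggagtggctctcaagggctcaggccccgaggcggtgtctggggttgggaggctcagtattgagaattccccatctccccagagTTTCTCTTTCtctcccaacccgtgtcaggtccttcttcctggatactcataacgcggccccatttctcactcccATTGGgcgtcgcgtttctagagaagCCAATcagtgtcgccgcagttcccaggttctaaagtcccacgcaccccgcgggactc
HLA-B and HLA-C were identical at 226 of 246 aligned bases (91.9%), and HLA-F at 202 of 247 (81.8%) with HLA-B. The NF-kB match began 177 bases before the start in HLA-B, where overlapping matches on both strands form 1 run, and 172 bases before it in HLA-C. HLA-F had no match to the consensus but an ISRE core from 156 to 147 bases before the start. Each of the 3 had CCAAT on the plus strand, beginning 56 bases before the start in HLA-B and HLA-C and 57 in HLA-F. TGACG began 106 bases before the start in HLA-B and 105 in HLA-C. A match describes the letters of this window and is not evidence of binding in these cells.

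B2M (chr15:44711517-44718145), whose product class I heavy chains need to reach the cell surface, is the only member outside chromosome 6 and was measured by 1 probe printed in 10 spots per array. Its signal ran from 13261 to 14776 (median 13858) in control cells, from 12267 to 13488 (median 12745) with cordycepin and from 12915 to 14509 (median 13717) with cordyceps. The spot ranges overlapped between all arrays. Its log2 ratio was 0.10 with cordycepin and -0.0025 with cordyceps, and the SD over the 10 spot pairs was 0.038 and 0.058. The spot in the corner gave -0.04 with cordyceps, inside the range of the spot pairs from -0.14 to 0.06. Under median scaling the ratios were -0.16 and 0.27, so no direction can be given for B2M.

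Ratios set against B2M on the same arrays do not depend on a scaling that shifts a whole array. HLA-B was 0.68 above B2M on the log2 scale with cordyceps (1.60-fold), HLA-C 0.37 and HLA-F 0.32, each by its brightest probe. HLA-E was at -0.14 by its probe 2, whereas the ratio of its probe 1 (0.21) was above that of B2M (-0.0025). With cordycepin the same differences were 0.06, -0.09, -0.09 and 0.02. With cordyceps, heavy chain and light chain signals therefore moved unequally for HLA-B, HLA-C and HLA-F. The B2M window, chr15:44711267-44711516 (plus strand), is shown because it holds exact matches to both the ISRE core and the NF-kB consensus. None of the heavy chain windows above holds exact matches to both, near matches not being counted.
B2M: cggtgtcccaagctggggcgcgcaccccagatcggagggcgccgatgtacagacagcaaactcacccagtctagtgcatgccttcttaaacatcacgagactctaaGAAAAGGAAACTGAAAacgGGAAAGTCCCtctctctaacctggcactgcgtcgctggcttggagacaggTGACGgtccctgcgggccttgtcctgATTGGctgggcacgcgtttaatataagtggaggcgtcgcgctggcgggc
It held 2 overlapping ISRE cores, from 144 to 129 bases before the start, with an NF-kB match at 125 to 116 on the minus strand, and TGACG and CCAAT matches nearer the start. Over all 8 windows, an NF-kB match was present in 5, an ISRE core in 5, TGACG in 5 and CCAAT in 6. The shares of 35116 RefSeq windows of the same length were 9.96%, 3.02%, 21.2% and 32.0%. The 8 windows are not independent. Those of HLA-B, HLA-C and HLA-F are alike, and TAP1 and PSMB9 share 1 CCAAT match.

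**Figure D2:**
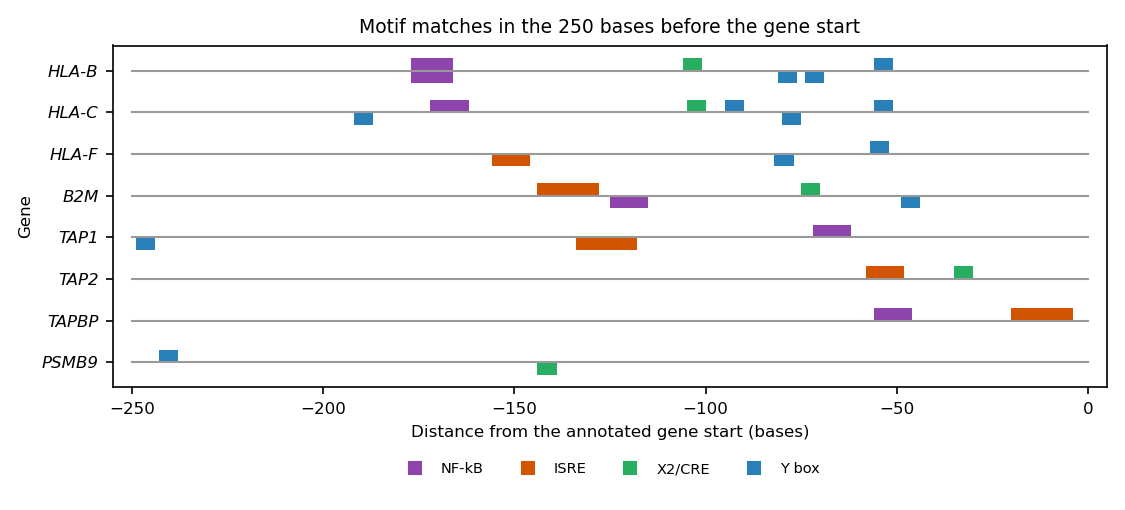
Motif matches (colored boxes, above the line on the plus strand and below it on the minus strand of the gene) over the 250 bases before the annotated start of the 8 member genes with a RefSeq window; the x axis gives the distance from the start in bases. HLA-B, HLA-C and HLA-F share the CCAAT match that begins 56 or 57 bases before the start. Exact matches to the ISRE core are seen in HLA-F, B2M, TAP1, TAP2 and TAPBP.

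TAP1 and TAP2 form the peptide transporter. TAP1 (chr6:32845209-32853704) had signals of 5822 in control cells, 5537 with cordycepin and 5486 with cordyceps, and the 3 signals lay close together. Its log2 ratios were 0.14 and -0.09, within the SD of a single probe. The measured probe of TAP2 (chr6:32821831-32838739) had 444, 439 and 519, with log2 ratios of 0.20 and 0.22 (1.15-fold and 1.17-fold); the second was just past the SD of 0.20 and the first was within that of 0.25. Neither gene kept its sign with cordycepin under every scaling.

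TAPBP (chr6:33299694-33314078), the gene of tapasin, had the lowest ratio among the members with both treatments, but its 3 probes did not match. Probe 2, the brightest, had signals of 8488 in control cells, 5750 with cordycepin and 6343 with cordyceps, and lies in the corner. Probe 1 had 146, 124 and 122, and probe 3 had 702, 671 and 726. The log2 ratios with cordycepin were -0.35 for probe 2 (1.27-fold lower), -0.02 for probe 1 and 0.15 for probe 3. With cordyceps they were -0.42 (1.34-fold lower), -0.25 and 0.05. Between probes the range was 0.50 and 0.47, so a lower TAPBP level rests on probe 2 with cordycepin and on probes 1 and 2 with cordyceps. Among probes of like signal in the corner, 24.5% with cordycepin and 25.2% with cordyceps were at least as low as probe 2. With the corner left out and the arrays rescaled, probe 3 stands for the gene and its ratios were 0.15 and 0.16.

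PSMB9 (chr6:32854192-32859851) encodes an immunoproteasome subunit that replaces a constitutive catalytic subunit and alters how peptides are cut. It was the member with the highest brightest-probe ratio with cordycepin. Its single probe, outside the corner, had signals of 2717 in control cells, 3461 with cordycepin and 2791 with cordyceps, so that the cordycepin array stood above the other 2. The log2 ratio was 0.56 (1.48-fold) with cordycepin and 0.04 with cordyceps. Of 3156 probes of like signal, 6.40% were at least as high with cordycepin, a share taken on the values that singled PSMB9 out. Over the alternatives the ratio with cordycepin ran from 0.30 to 0.63 and stayed above 0.

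TAP1 and PSMB9 lie head to head on chromosome 6, with 487 bases between their annotated starts, and both windows are shown because their ratios differed all the same. With cordycepin PSMB9 was 0.42 above TAP1 (1.34-fold), and with cordyceps 0.12. The windows, chr6:32853705-32853954 (minus strand) for TAP1 and chr6:32853942-32854191 (plus strand) for PSMB9, share 13 bases, in which lies the CCAAT match of both.
TAP1: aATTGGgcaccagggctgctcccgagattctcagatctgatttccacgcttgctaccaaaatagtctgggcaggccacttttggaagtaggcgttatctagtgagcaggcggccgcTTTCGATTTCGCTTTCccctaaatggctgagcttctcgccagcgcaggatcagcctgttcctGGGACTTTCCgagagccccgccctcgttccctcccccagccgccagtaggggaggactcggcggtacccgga
PSMB9: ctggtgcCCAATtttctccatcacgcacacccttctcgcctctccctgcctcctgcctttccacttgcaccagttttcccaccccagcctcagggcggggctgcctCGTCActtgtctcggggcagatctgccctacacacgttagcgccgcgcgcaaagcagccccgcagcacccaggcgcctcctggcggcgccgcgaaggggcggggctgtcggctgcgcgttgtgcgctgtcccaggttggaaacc
The NF-kB match and the 2 overlapping ISRE cores lay in the TAP1 window, within 134 bases of the TAP1 start. The PSMB9 window held a TGACG match on the minus strand besides CCAAT, and no NF-kB or ISRE match.

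**Figure D3:**
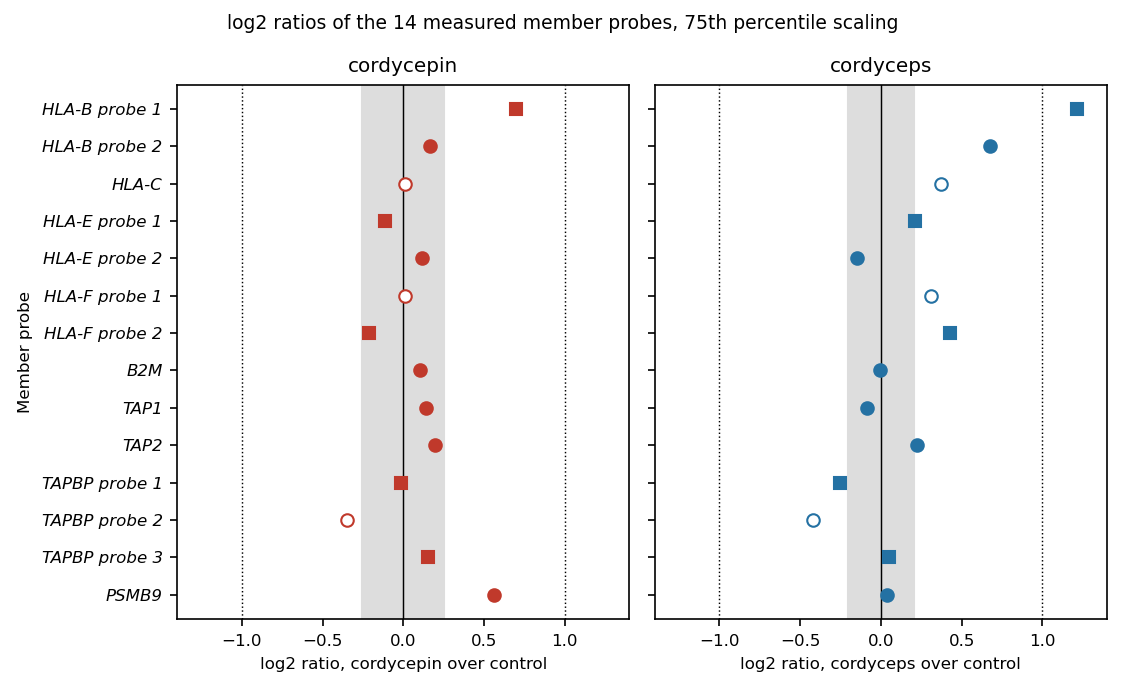
log2 ratio of cordycepin (left) or cordyceps (right) over control for the 14 measured member probes after 75th percentile scaling, with 1 array per condition; circles are the brightest probe of a gene, squares its other probes, open symbols probes in the array corner. The grey band is the SD of a single probe (0.25 and 0.20) and dotted lines mark 2-fold; HLA-B probe 1 with cordyceps (1.21) is the only point past them.

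The treated arrays were also compared directly, which leaves the control array out. On the log2 scale the cordyceps array was above the cordycepin array by 0.51 for each HLA-B probe, 0.36 for HLA-C and 0.31 and 0.64 for the HLA-F probes. The HLA-E probes gave 0.33 for probe 1 and -0.26 for probe 2. The difference was -0.52 for PSMB9 and -0.23 for TAP1. These last signs, and that of HLA-E probe 2, depend on the scaling. With median scaling PSMB9 had ratios over control of 0.31 with cordyceps and 0.30 with cordycepin, and TAP1 had 0.18 and -0.12. HLA-E probe 2 had 0.12 and -0.15 under that scaling. The doses and the agents differ, and with 1 array of each, treatment and culture cannot be told apart.

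The other genes of the pathway were taken from lists set by function and are given by their brightest probe. Background for these counts is 6.01% of 15762 named genes at least 2-fold higher and 3.61% lower with cordycepin, and 4.39% and 3.3% of 14902 with cordyceps. Of the other 8 proteasome genes, none was 2-fold higher or lower with either treatment. PSMB10, another immunoproteasome subunit, had signals of 8981, 12259 and 8869 on the control, cordycepin and cordyceps arrays and a log2 ratio of 0.66 with cordycepin, above 0 in all 6 ways of scaling or background correction. The third such subunit, PSMB8, had 641, 630 and 544 and a ratio of 0.19. The constitutive catalytic subunit genes PSMB5, PSMB6 and PSMB7 had ratios of -0.26, 0.32 and -0.08 with cordycepin, and -0.48, -0.37 and -0.25 with cordyceps.

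None of the 12 genes of peptide trimming and loading was 2-fold changed under 75th percentile scaling, and their median log2 ratios were -0.27 with cordycepin and 0.051 with cordyceps. The 6 peptidase genes had medians of -0.06 with cordycepin and -0.27 with cordyceps. The 6 loading chaperone genes had -0.41 and 0.50, and only these are given singly below. CALR, which encodes calreticulin, a chaperone of the loading complex, had signals of 67708 in control cells, 50719 with cordycepin and 109736 with cordyceps. CANX, the calnexin gene, had 2295, 1419 and 3659, and PDIA3, encoding the disulfide isomerase ERp57, had 7742, 5248 and 12728. Each was highest with cordyceps and lowest with cordycepin. The log2 ratios with cordyceps were 0.70, 0.67 and 0.72, and with cordycepin -0.20, -0.48 and -0.35, and these signs were the same in all 6 ways of scaling or background correction. Of the other loading chaperone genes, UGGT1 had ratios of -0.55 with cordycepin and 0.32 with cordyceps, GANAB, encoding a glucosidase subunit, had -0.80 and -0.43, and TAPBPL, a dim probe in the corner, had 0.22 and -0.33. With cordycepin, CALR, CANX, PDIA3, UGGT1 and GANAB were below 0 in all 6 ways of scaling or background correction. With median scaling TAPBPL was at -0.04 as well, all 12 genes of the list were below 0, and GANAB passed 2-fold at -1.06.

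Among the 11 other class I and class I-like genes, 9 were detected with cordycepin and 3 were at least 2-fold higher. These were MICB, ULBP1 and ULBP2, which encode ligands of the activating receptor NKG2D of natural killer cells. MICB had signals of 611, 1141 and 384 on the control, cordycepin and cordyceps arrays, and was 2.17-fold higher with cordycepin by its brightest probe, which lies in the corner, while its other probe gave a log2 ratio of 0.43. ULBP1 had 353, 737 and 1400, a 2.42-fold rise with cordycepin and a 3.96-fold rise with cordyceps. ULBP2 had 138, 260 and 167, and was 2.19-fold higher with cordycepin. Outside the corner 2 of 5 measured genes of the list, ULBP1 and ULBP2, were called. With median scaling MICB and ULBP2 came to 0.85 and 0.87 on the log2 scale, under 2-fold, and ULBP1 to 1.01, and normexp background correction gave 0.97, 0.83 and 1.18 for MICB, ULBP2 and ULBP1. HLA-G, a non-classical heavy chain gene with its probe in the corner, had ratios of -0.04 with cordycepin and 0.15 with cordyceps. FCGRT, the gene of the neonatal Fc receptor heavy chain, which also pairs with β2-microglobulin, had -0.76 and -0.33 by a probe in the corner, and -1.02 with cordycepin under median scaling.

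**Figure D4:**
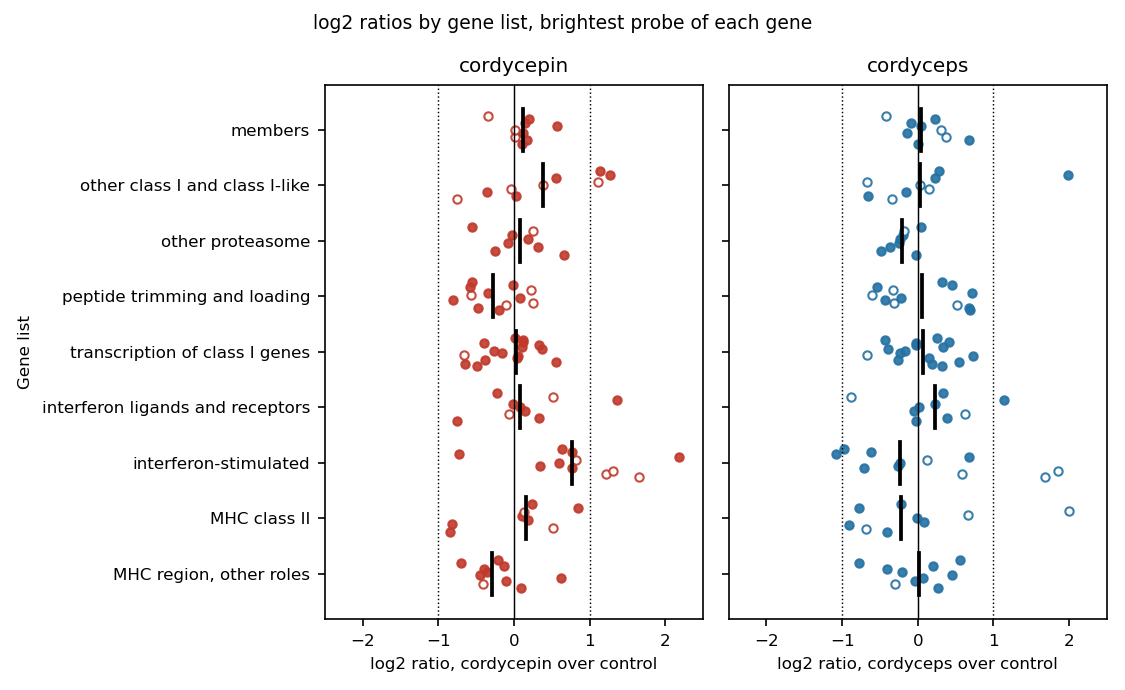
log2 ratio over control of every measured gene of each list by its brightest probe, for cordycepin (left) and cordyceps (right); black bars are list medians, open circles are probes in the array corner and dotted lines mark 2-fold. The interferon-stimulated list has the highest median with cordycepin (0.77) and a median of -0.23 with cordyceps.

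No ligand gene of the interferons on the list (IFNG, IFNB1, IFNL1) was detected on any array, and neither was CIITA, the activator of class II genes. Of the 19 transcription factor genes, 16 were measured in each comparison and none was 2-fold changed. NLRC5, the activator of class I genes, was dim, with signals of 111, 124 and 85 and log2 ratios of 0.37 and -0.39. IRF1 had 301, 383 and 438 and ratios of 0.56 and 0.54. NFKB1 had 1634, 1460 and 2710, with ratios of 0.05 and 0.73. SOCS1, a feedback inhibitor of interferon signaling, was at least 2-fold higher with both treatments, with signals of 52.4, 116 and 115, although normexp background correction brought its ratios to 0.76 and 0.62.

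The interferon-stimulated genes are, like the class I genes, known to respond to interferons. Of 11 measured, 4 were at least 2-fold higher with cordycepin and none lower, with a median log2 ratio of 0.77. ISG15, a ubiquitin-like protein gene, had signals of 2125, 8316 and 3413, a 4.54-fold rise with cordycepin. IFI6 was 2.47-fold and GBP2 2.33-fold higher, and GBP1, not well above background in control cells, at least 3.14-fold. Under normexp the GBP1 value fell below 2-fold with both treatments (0.66 and 0.49 on the log2 scale), and under median scaling so did that of GBP2 (0.95). With cordyceps 2 were at least 2-fold higher, IFI6 and GBP1, both in the corner, and MX1 was 2.12-fold lower, though its ratio was -0.81 with median scaling and -0.43 with normexp. GBP2 lies in the corner too. Of the 7 genes measured outside the corner, 1 (ISG15) was at least 2-fold higher with cordycepin and none with cordyceps, and their medians were 0.64 and -0.61.

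Class II genes were mostly dim or not detected. CD74, HLA-DRA and HLA-DQA1 were detected on no array, and by the brightest probe none of the 12 genes was called with cordycepin and HLA-DPB1 alone with cordyceps, at least 3.98-fold higher by a probe in the corner, with control cells not well above background. With normexp that value was 0.92 on the log2 scale. The brightest HLA-DQB1 probe had a ratio of 0.85 with cordycepin, and 0.48 under normexp. The other 2 measured probes of that gene had 1.70 and 2.16. These 2 values may be bounds, since neither probe gave a value with cordyceps. HLA-DMB, a class II peptide editor, had signals of 5183, 2533 and 2755 and log2 ratios of -0.82 and -0.91, the first becoming -1.08 with median scaling. Of 10 genes of the MHC region with other roles, none was 2-fold changed and their medians were -0.29 and 0.015, compared with 0.12 and 0.04 for the members. The 6 reference genes had medians of -0.0032 with cordycepin and -0.29 with cordyceps.

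**Figure D5:**
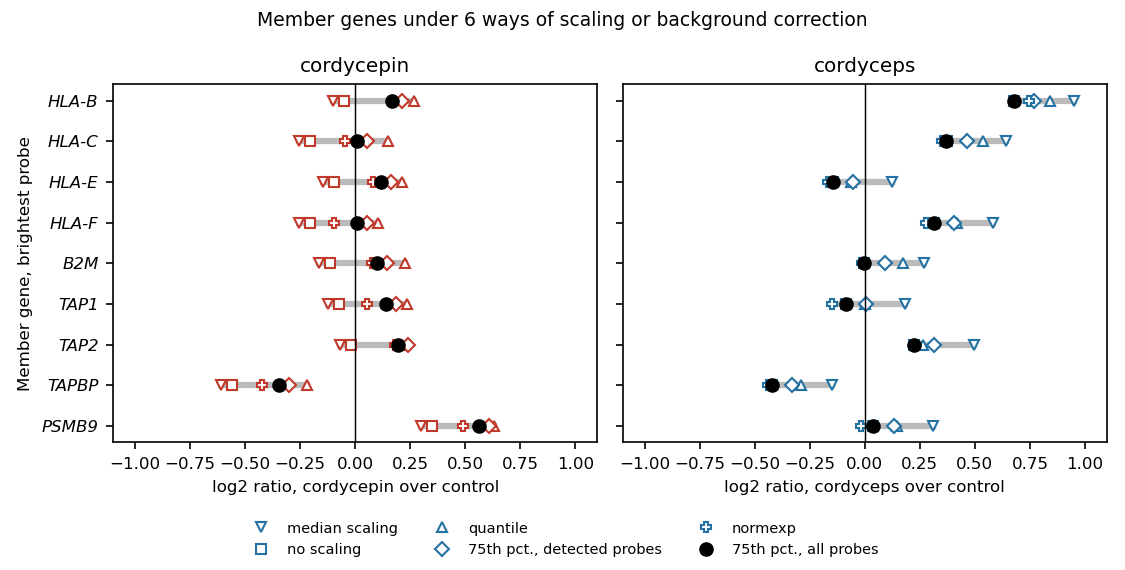
log2 ratio of the brightest probe of each member gene under 6 ways of scaling or background correction (black, 75th percentile over all probes; open symbols, the others; grey bar, their range), for cordycepin (left) and cordyceps (right). With cordycepin only PSMB9 stays above 0 and TAPBP below 0 throughout; with cordyceps HLA-B, HLA-C, HLA-F and TAP2 stay above 0 and TAPBP below 0.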

How the data were processed

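RNA of A549 cells was measured on 1-color Agilent arrays, 1 per condition. The authors deposited the scanner output, per the file headers from Agilent Feature Extraction, whose intensity values were background-subtracted and detrended within the array and not scaled between arrays, and a value table with the mean intensity of each probe. The methods name Cy3 and Cy5, whereas the files hold Cy3 alone, so ratios were taken between arrays. Control and outlier spots were left out, the spots of a probe averaged as log2 values, and the 75th percentile subtracted. Probes were named by their accession through RefSeq (GRCh38.p14), which matched 31104 of 58201. The array design uses hg19, so no probe coordinates are given. Changes were called at 2-fold. The ratio was used for a probe detected on both arrays, and a bound for one detected on 1, taken from its own dim signal or the lowest detected signal, whichever was higher. With 1 array per condition no test was run. The members and lists were chosen with earlier results of these data known. The text names every member with every probe and, from each list, genes changed 2-fold and up to 4 others from among the brightest. PSMB8, PSMB10, CANX, UGGT1, TAPBPL, NLRC5, IRF1, CIITA, HLA-DQB1 and the undetected interferon and class II genes fall outside that rule and were chosen for their role after their values were seen. Genes of like pattern were not sought, since 3 arrays give 2 ratios. Upstream windows were aligned globally. The calling step was tested on simulated data, made from the control array alone with noise smaller than the spread between the real arrays. Of 200 probes changed 4-fold among 58200, 200 were recovered and 0 others were called. These settings make recovery easy, so the test checks the calculation and not the error of the real calls. The number of arrays limits the precision. Python 3.11.15, numpy 2.4.6, pandas 2.3.3, R 4.3.3 and limma 3.58.1 (normexp on median spot and background intensity) were used, with scaling, background, detection and threshold varied as alternatives. Some genes of the lists are not reported here.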

Additional observations from a re-analysis of the deposited data

How the results depend on the processing

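Scaling each array by its median moved the median log2 ratio of the 9 genes to -0.15 with cordycepin and 0.31 with cordyceps, by construction a shift of every ratio. A 1.5-fold threshold called 1 of 14 probes higher with cordycepin and 2 with cordyceps, where 15.7% and 9.90% of all probes were called higher. Scaling on probes detected on all 3 arrays, quantile normalization, no scaling, normexp, the deposited value table, kept outlier spots, and detection on both arrays or no detection filter left the 2-fold counts as they were, as did median scaling and leaving out the corner. Of 160 single-gene values under these alternatives, 136 moved by less than the SD of a single probe and 24 by more, 18 of them under median scaling. With the corner left out and the arrays rescaled, HLA-C could not be measured, and HLA-F and TAPBP rest on other probes, TAPBP with 0.15 for cordycepin and 0.16 for cordyceps. No paired analysis was possible because each condition has 1 array. Dim probes are limited by background more than the bright members.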
